A study of Mus musculus with 30 samples.

Results

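The genes described here code for the 3 large families of conjugating enzymes of the liver, the glutathione S-transferases (Gst), the UDP-glucuronosyltransferases (Ugt), and the sulfotransferases (Sult). They were chosen by symbol. A gene was taken if its name followed the pattern of a Gst (classes a, k, m, o, p, t, and z), Ugt (1a, 2a, 2b, and 3a), or cytosolic Sult gene, and if its counts summed to 20 or more over the time course. Of 54429 gene symbols in the time course, 64 followed these patterns and 46 of them reached 20 counts, namely 21 Gst genes, 17 Ugt genes, and 8 Sult genes. The other 18 stayed under 20 counts and 7 of them were at 0. They included the classical bile acid and steroid sulfotransferase gene Sult2a1 with 14 counts and Sult3a1 with 16 counts over the 18 male livers. All 46 genes were found by Ensembl identifier in the second experiment.

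Conjugating enzymes attach a polar group to drugs, hormones, bile acids, bilirubin, and products of lipid peroxidation, so that these can leave the hepatocyte in bile or blood. Gst enzymes use glutathione, Ugt enzymes use UDP-glucuronic acid, and Sult enzymes use the sulfate donor PAPS. Many Gst genes are known targets of the oxidative stress factor NRF2 and of the xenobiotic receptors CAR and PXR, and several Ugt2b and Sult genes differ between male and female liver through the pattern of growth hormone.

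The liver RNA came from 2 experiments. In the time course, male C57BL/6J mice of 2, 6, and 12 months were killed at zeitgeber time (ZT, hours after lights on) 1, 5, 9, 13, 17, and 21, with 1 library for each age and time (18 libraries). In the genotype cohort, male mice with liver-specific loss of Egr-1 (KO, floxed Egr-1 crossed with Alb-Cre, which acts in hepatocytes and leaves Egr-1 in the other cells of the liver) were compared with littermates (WT) at the same 3 ages. Each age and genotype of the cohort had 1 library from each of a pair of collections labelled H and L (12 libraries). By the study, these were the times at which Egr-1 protein was highest (H) and lowest (L) at that age. They were ZT13 and ZT17 at 2 months, ZT9 and ZT21 at 6 months, and ZT5 and ZT21 at 12 months. All mice were on chow and a 12-h light and 12-h dark cycle, and the KO lines, of strain 129 origin, had been backcrossed to C57BL/6J. Captions of the study name several animals a group for the sequenced livers, in numbers that differ between captions, and how these map to a library was not stated in the sources used here, so p-values below measure the spread between libraries.

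Total counts ranged from 13375377 to 16557378 in the time course and from 13747706 to 21748956 in the cohort. Values are CPM, each count relative to the library total, scaled with TMM factors. The 46 genes took between 0.80% and 1.76% of all counts of a library of the time course, and the lowest share was in the 6-month library of ZT5. Hepatocyte markers dominated every library, whereas the markers of kidney summed to at most 0.116 CPM. Some features of the whole data set touched the results below. All 6 libraries of the 6-month time course were high in acute-phase genes. In the cohort, Egr1 itself did not separate the labels in every pair, so the labels are given as labels. In such bulk RNA, fewer cells of a type and less RNA per cell cannot be told apart.

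Per summed exon length, the most abundant conjugating enzymes of the time course were Ugt2b5 (689 ± 193 FPKM, SD, n = 18), Ugt2b1 (602 ± 260), and Sult2a8 (550 ± 173), a sulfotransferase of bile acids in mice. They were followed by Gstm1 (546 ± 259 FPKM), Gstp1 (520 ± 114), and Gsta3 (489 ± 148). The SD covers ages and times of day. These neighbours in rank did not differ beyond their spread, and their order depends on the length used. With the longest transcript in its place, Gstp1 (980 FPKM), Sult2a8 (842), and Gsta3 (761) were each over 1.5 times higher and led, while Ugt2b5 and Ugt2b1 kept their values. Mean levels were 236 FPKM for Ugt2a3, 217 FPKM for the phenol sulfotransferase gene Sult1a1, 188 FPKM for Gstt1, and 165 FPKM for Gstz1, which acts in tyrosine breakdown. Ugt3a2 of the UGT3A subfamily, whose enzymes use other sugars than glucuronic acid, had 135 FPKM, Gstk1 had 91.0 FPKM, and Gsto1 had 33.6 FPKM. Ugt1a1, the bilirubin transferase, had 21.2 FPKM by the summed length of all its exons. The same counts gave 122.7 FPKM when divided by the length of the exons that it does not share. Reads were not limited to those exons. Sult5a1 had 1.61 FPKM. In the cohort the order differed, with Gstm1 (1197 FPKM), Gstp1 (708), and Gsta3 (697) at the head, followed by Ugt2b5 (344 FPKM). The 2 tables were made in separate experiments, and levels were not tested between them.

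Some of these genes share sequence, which limits how far their counts can be told apart. Of all 100-base windows of the transcript, 100% of Ugt1a6a lay in other genes as well, as did 81.8% of Gsta1 (mostly Gm3776), 63.5% of Gstp2 and 52.8% of Gstp1 (each other and the pseudogene Gstp-ps), 35.0% of Gsta2, and 24.2% of Ugt2b38 and 24.7% of Ugt2b5 (each other). The Ugt1a genes share their last exons and had 57.2% or more of their windows in other genes. No such window was found for Gstp3, Gsta3, Gsta4, Gstm4, Gstm7, Gstt1, Gstt2, Ugt2b1, or the Sult genes other than Sult1a1.

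The first question was how the level of these genes differed with age over the whole day. Between 2 and 12 months of the time course, 10 Gst genes of the alpha, mu, and theta classes rose (Gsta1, Gsta2, Gsta3, Gsta4, Gstm1, Gstm3, Gstm4, Gstm5, Gstt1, and Gstt3), and a smaller group of Ugt and Sult genes fell. Gstm2, Gstm6, Gstm7, and Gstt2 of these classes did not pass the test. Of 43 members tested, 12 were higher and 6 lower at 12 months (edgeR's quasi-likelihood test in a model with terms for age and ZT, Benjamini-Hochberg adjusted p under 0.05 over all 13361 genes), where 11.9% of all genes were called, 6.56% higher and 5.36% lower. The 10 Gst genes called, of 20 tested, were all higher. Of 15 Ugt genes, 1 was higher and 4 lower, and of 8 Sult genes, 1 was higher and 2 were lower. The median log2 difference was 0.10 over the members and 0.00 over all genes.

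**Figure D1:**
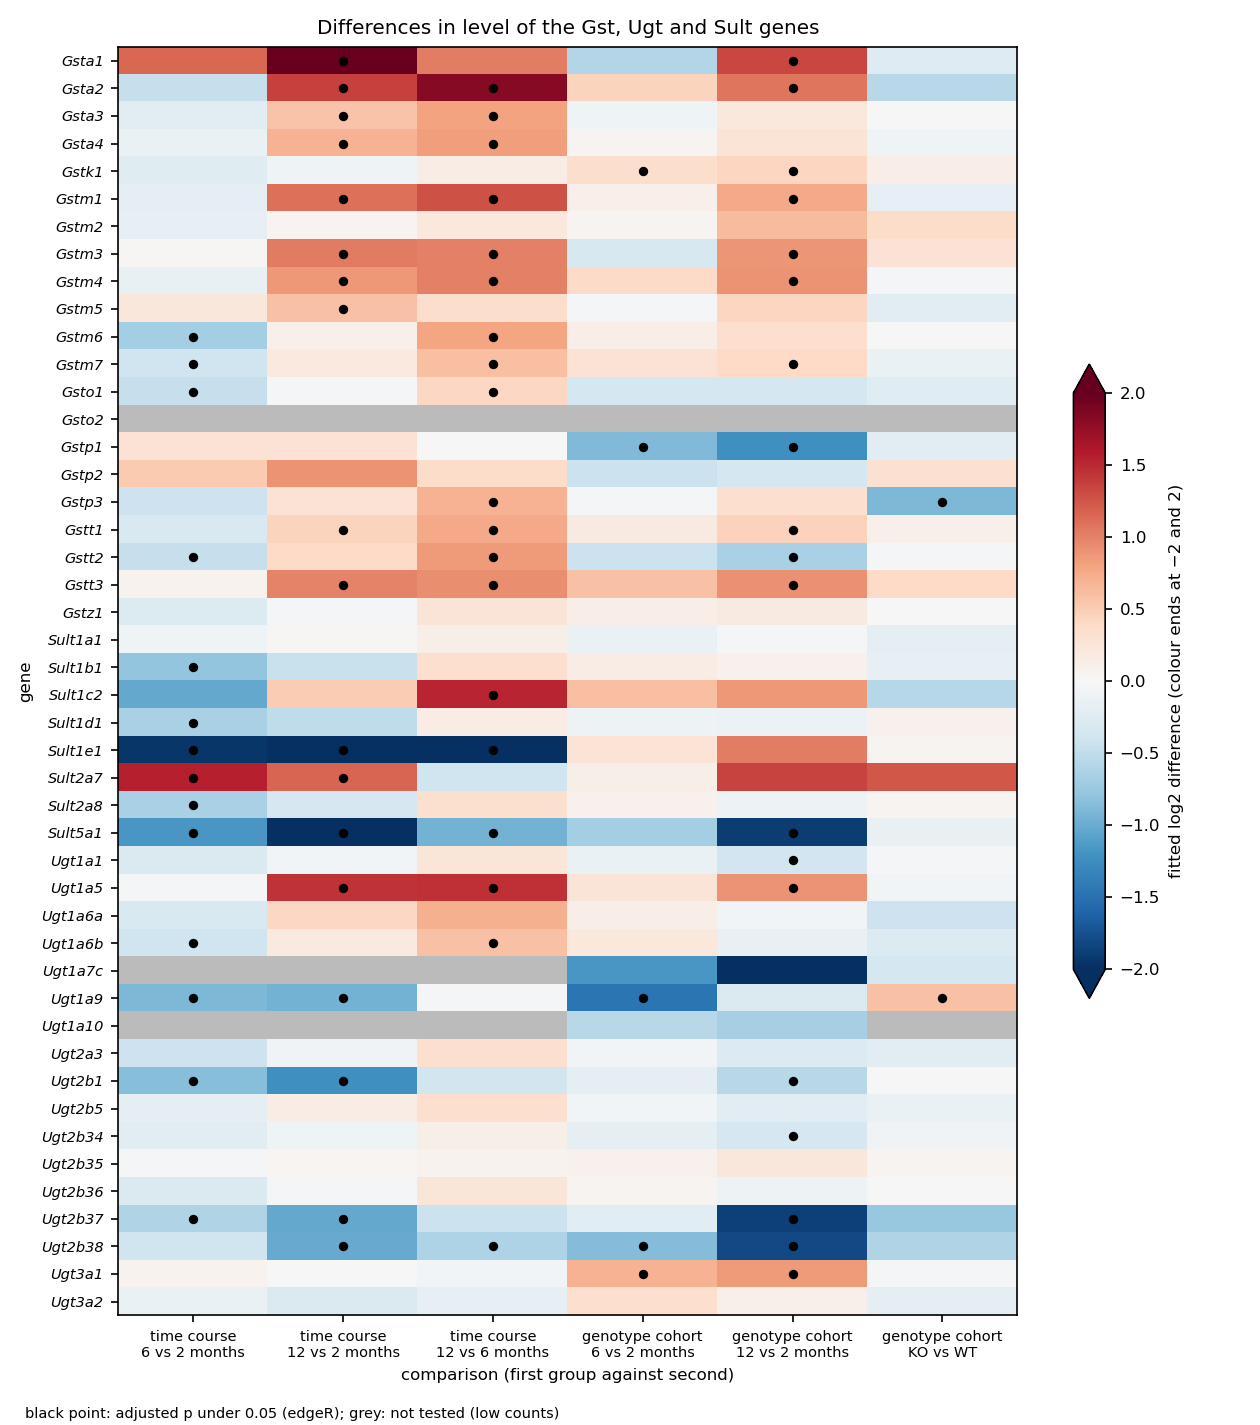
Fitted log2 differences of the 46 genes (rows) in 6 comparisons (columns), in colour from −2 to 2. Black points mark adjusted p under 0.05 and grey marks genes not tested. In the time course, 10 of 20 Gst rows carry a point at 12 against 2 months and 13 at 12 against 6 months, all of them red, while Ugt2b1, Ugt2b37, Ugt2b38, and Sult5a1 are blue against 2 months in both experiments.

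The alpha class detoxifies products of lipid peroxidation and aflatoxin epoxide, among other substrates. Gsta2 had a lowest, median, and highest level of 13.01, 21.7, and 25.02 CPM at 2 months, 4.74, 14.7, and 26.4 CPM at 6 months, and 42.2, 52.3, and 71.8 CPM at 12 months. Every 12-month library lay above every library of both younger ages, and the fitted difference to 2 months was 1.36 ± 0.27 on the log2 scale (SE, adjusted p = 0.00377). Gsta1 was much rarer, with 0.186 to 2.13 CPM at 2 months, a median of 1.67 CPM at 6 months, and 2.53 to 7.52 CPM at 12 months. Its log2 difference between 12 and 2 months was 2.16 ± 0.38 (adjusted p = 0.00158), the largest rise among the members, in a gene whose reads could in large part have come from its copies.

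Gsta3 was the most abundant alpha gene, with 1506, 1940, and 2336 CPM at 2 months as lowest, median, and highest, and 2396, 2828, and 3065 CPM at 12 months. The groups did not overlap, and the difference of 0.57 ± 0.15 on the log2 scale (adjusted p = 0.0247) ended as a call when single time points were left out, with adjusted p from 0.05001 to 0.0622 without ZT1, ZT9, ZT13, or ZT21. Gsta4, whose enzyme conjugates 4-hydroxynonenal, had 34.5, 46.0, and 47.1 CPM at 2 months and 62.4, 72.4, and 78.6 CPM at 12 months, again without overlap (log2 difference 0.70 ± 0.14, adjusted p = 0.00449).

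The mu class showed the same direction in its abundant member. Gstm1 had 485, 595, and 706 CPM at 2 months, 416, 472, and 780 CPM at 6 months, and 980, 1292, and 1576 CPM at 12 months. All 12-month libraries were above all others. The log2 difference was 1.10 ± 0.16 to 2 months (adjusted p = 4.03e-04) and 1.28 ± 0.16 to 6 months (adjusted p = 9.5e-05). Gstm3 rose by 1.04 ± 0.18 (adjusted p = 0.00179), from a median of 20.8 CPM to 45.1 CPM and without overlap. Gstm4 rose by 0.86 ± 0.13 (adjusted p = 3.79e-04), with 20.2 to 44.4 CPM at 2 months and 32.7 to 91.9 CPM at 12 months, ranges that overlap. Gstm5, named after its values were seen, was higher as well (0.58 ± 0.15, adjusted p = 0.0172), a call lost without ZT9, ZT13, or ZT21 (adjusted p from 0.05698 to 0.0817).

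In the theta class, Gstt3 had 19.9, 21.96, and 23.4 CPM at 2 months, 15.3, 24.6, and 26.0 CPM at 6 months, and 27.3, 45.4, and 54.1 CPM at 12 months. It rose by 1.00 ± 0.14 on the log2 scale against 2 months (adjusted p = 2.27e-04), and its lowest 12-month library was the one of ZT1. Gstt1 rose by 0.45 ± 0.13 (adjusted p = 0.0388), from a median of 275 CPM to 381 CPM without overlap. This smaller change was no longer called without ZT9, ZT13, or ZT21. Among the other abundant Gst genes, Gstp1 (log2 difference 0.30 ± 0.15), Gstz1 (−0.02 ± 0.12), and Gstk1 (−0.09 ± 0.09) did not pass the test.

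**Figure D2:**
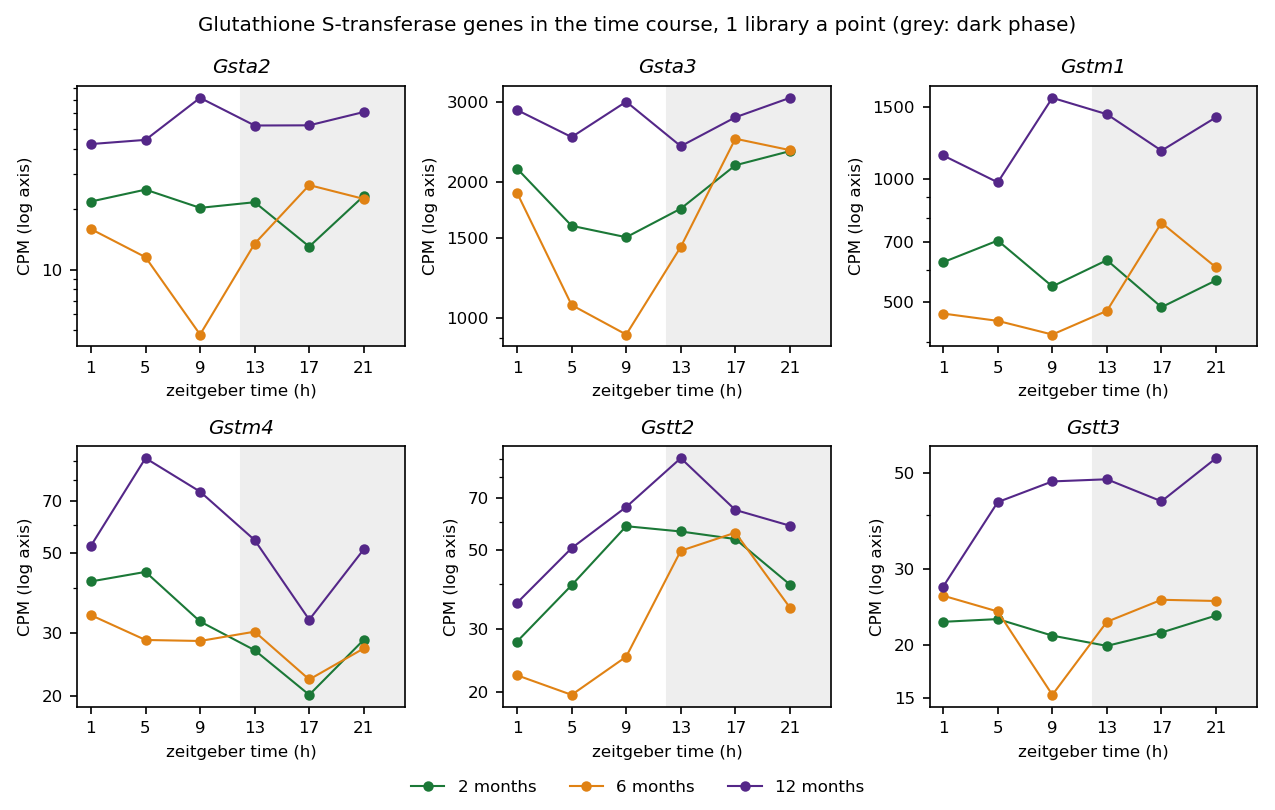
Levels in CPM (log axis) of 6 Gst genes against ZT in hours, with 1 library a point and 1 line an age. Gsta2 and Gstm1 at 12 months (purple) lie above both younger ages at every time, from 42.2 CPM and 980 CPM upwards, while the highest Gstt2 library is at ZT9, ZT17, and ZT13 at 2, 6, and 12 months.

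Among the Ugt genes, Ugt2b1 fell with the smallest p. Its lowest, median, and highest levels were 1834, 2407, and 2738 CPM at 2 months, 734, 1253, and 1774 CPM at 6 months, and 722, 956, and 1352 CPM at 12 months. Both older ages lay below all libraries of 2 months. The log2 difference to 2 months was −0.86 ± 0.16 at 6 months (adjusted p = 0.00194) and −1.23 ± 0.16 at 12 months (adjusted p = 1.16e-04). Between 12 and 6 months the difference of −0.37 did not pass the test.

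Ugt2b37 and Ugt2b38 were lower at 12 than at 2 months as well, and their close relative Ugt2b5 did not pass the test. The difference between the genes was not tested. Ugt2b38 had 107, 123.4, and 155 CPM at 2 months, 64.6, 99.2, and 127 CPM at 6 months, and 42.6, 63.0, and 87.4 CPM at 12 months. Ugt2b37 had 16.97, 19.3, and 27.2 CPM at 2 months and 6.60, 9.62, and 12.7 CPM at 12 months. The log2 differences between 12 and 2 months were −1.01 ± 0.18 (adjusted p = 0.00182) and −1.02 ± 0.19 (adjusted p = 0.00295), and in both genes the groups were apart. Of the members, 6 lay below all 2-month libraries at 12 months (1.88% of all genes) and 8 lay above them (2.21%). Ugt2b5 had 856, 1267, and 1823 CPM at 2 months and 1009, 1352, and 2253 CPM at 12 months, with a log2 difference of 0.14 ± 0.18 (adjusted p = 0.661). The steps were less firm. Ugt2b37 was called between 6 and 2 months (adjusted p = 0.0488) and lost this call without ZT1, ZT5, ZT13, ZT17, or ZT21. Ugt2b38 was called between 12 and 6 months (adjusted p = 0.0282) and lost it without ZT9, ZT13, or ZT21.

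These 3 genes lie on chromosome 5 and have closely related upstream sequences. Over the 250 bases before the RefSeq start, aligned in pairs, Ugt2b37 and Ugt2b38 were 85.2% identical, Ugt2b38 and Ugt2b5 81.5%, and Ugt2b37 and Ugt2b5 73.0%. The sequences are shown to let the genes that fell be compared with the one that did not pass the test. They are the 250 bases before the start in GRCm38.p6 from RefSeq, 5′ to 3′ on the minus strand, at chr5:87254789-87255038, chr5:87424204-87424453, and chr5:87140341-87140590. None held a motif of those searched, so no letter is in capitals.
Ugt2b37: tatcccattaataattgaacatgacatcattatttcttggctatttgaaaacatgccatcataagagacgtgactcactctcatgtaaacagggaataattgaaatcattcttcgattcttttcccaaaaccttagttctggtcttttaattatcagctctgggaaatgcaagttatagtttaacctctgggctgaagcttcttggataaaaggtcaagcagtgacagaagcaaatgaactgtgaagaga
Ugt2b38: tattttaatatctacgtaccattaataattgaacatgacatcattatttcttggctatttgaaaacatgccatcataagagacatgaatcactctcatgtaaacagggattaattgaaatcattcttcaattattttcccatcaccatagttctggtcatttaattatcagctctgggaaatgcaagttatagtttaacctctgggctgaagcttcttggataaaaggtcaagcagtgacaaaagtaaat
Ugt2b5: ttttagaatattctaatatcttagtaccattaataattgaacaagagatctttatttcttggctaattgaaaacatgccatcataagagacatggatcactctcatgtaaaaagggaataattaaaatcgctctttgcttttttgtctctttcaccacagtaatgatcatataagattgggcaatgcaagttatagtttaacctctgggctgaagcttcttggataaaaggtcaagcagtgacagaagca

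Within the Ugt1a cluster, whose genes each have a first exon of their own, Ugt1a9 fell. It had 18.9, 19.6, and 25.6 CPM at 2 months, 9.11, 11.3, and 12.6 CPM at 6 months, and 6.10, 10.7, and 15.8 CPM at 12 months. Both older ages were below all 2-month libraries, with log2 differences of −0.90 ± 0.15 (adjusted p = 0.0012) and −0.94 ± 0.15 (adjusted p = 8.39e-04). Ugt1a5, named after its values were seen, went the other way, from a median of 10.1 CPM to 29.99 CPM (log2 difference 1.45 ± 0.33, adjusted p = 0.00923), with 9.82 CPM in the library of ZT17 and 48.1 CPM in that of ZT5 at 12 months. Ugt1a1 had medians of 52.0, 40.8, and 51.0 CPM at the 3 ages, and its difference of −0.05 ± 0.13 between 12 and 2 months did not pass the test.

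Of the Sult genes, Sult5a1 and Sult1e1 were called lower in all 3 comparisons of age. Sult5a1 had 10.5, 12.1, and 15.9 CPM at 2 months, 3.31, 5.53, and 9.16 CPM at 6 months, and 2.45, 2.94, and 3.86 CPM at 12 months. The log2 differences were −1.17 ± 0.17 from 2 to 6 months (adjusted p = 3.49e-04), −0.94 ± 0.19 from 6 to 12 months (adjusted p = 0.00297), and −2.11 ± 0.18 from 2 to 12 months (adjusted p = 1.93e-06). It had the smallest p of all members in the last comparison.

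Sult1e1, the estrogen sulfotransferase, ranged from 2.66 to 18.8 CPM at 2 months with its high values at ZT17 and ZT21, from 0.272 to 3.16 CPM at 6 months, and from 0.0556 to 0.562 CPM at 12 months. The last range stands for 1 to 9 counts a library, and 3 of the 6 libraries had 3 counts or fewer. The log2 difference between 12 and 2 months was −4.41 ± 0.57 (adjusted p = 1.37e-04) and between 6 and 2 months −1.94 ± 0.47 (adjusted p = 0.0126). The latter was lost without ZT21 (adjusted p = 0.0585), and the call between 12 and 6 months was lost without ZT5, ZT9, ZT13, or ZT21 (adjusted p from 0.05003 to 0.061). Sult2a7 was higher at both older ages, with 1.81 to 3.04 CPM at 2 months, 4.69 to 11.4 CPM at 6 months, and 1.54 to 12.3 CPM at 12 months (log2 difference 1.56 ± 0.30 at 6 months, adjusted p = 0.00263, and 1.17 ± 0.30 at 12 months, adjusted p = 0.0194). Without ZT9 or ZT17 the call at 12 months was lost. Sult1a1 had medians of 325, 306, and 321 CPM and did not pass the test.

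**Figure D3:**
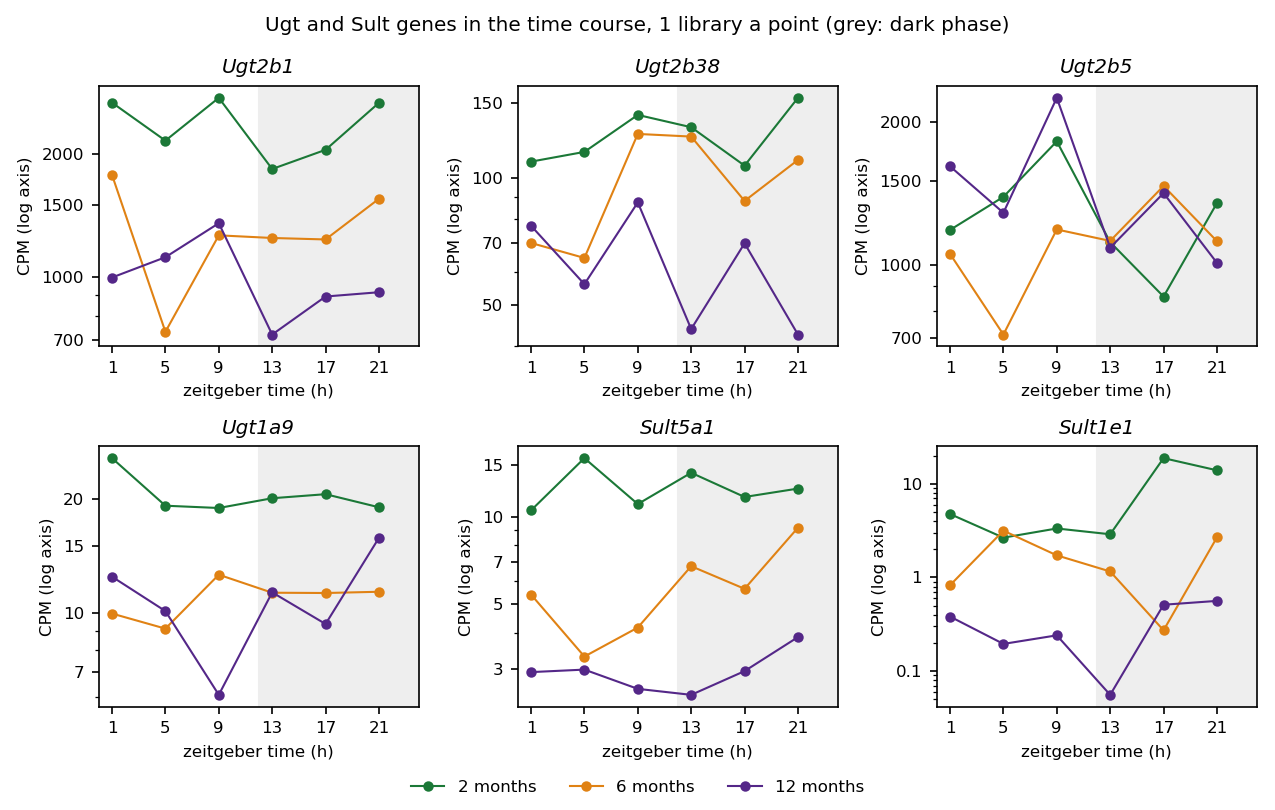
Levels in CPM (log axis) of 4 Ugt and 2 Sult genes against ZT in hours, with 1 library a point and 1 line an age. The 2-month libraries (green) lie above those of 12 months (purple) at every time in Ugt2b1, Ugt2b38, Ugt1a9, Sult5a1, and Sult1e1, and the ages cross in Ugt2b5.

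The 6-month libraries stood apart from this order. Against 2 months, 13 members were lower and 1 was higher, where 6.47% of all genes were called lower and 7.19% higher. The members' median log2 difference was −0.29 against 0.02 over all genes. The lower members were 5 of 8 Sult genes, 4 of 15 Ugt genes, and 4 of 20 Gst genes, and 7 of the 13 lay below all 2-month libraries, where 1.97% of all genes did. Sult1b1, a sulfotransferase of thyroid hormones, had 65.6, 71.0, and 89.4 CPM at 2 months and 26.0, 45.7, and 57.1 CPM at 6 months (log2 difference −0.79 ± 0.20, adjusted p = 0.0152). Sult1d1 went from a median of 484 CPM to 328 CPM (−0.65 ± 0.17, adjusted p = 0.0172).

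Sult2a8 went from a median of 2082 CPM to 1512 CPM, with all 6-month libraries below all 2-month libraries (log2 difference −0.65 ± 0.19, adjusted p = 0.0357). This call was lost without ZT1, ZT5, ZT9, or ZT21 (adjusted p from 0.0561 to 0.116). Gsto1, an omega-class enzyme that reduces dehydroascorbate, had 64.2, 75.0, and 91.6 CPM and then 45.4, 52.5, and 68.1 CPM (−0.46 ± 0.07, adjusted p = 5.61e-04). Gstm6 fell by 0.68 on the log2 scale (SE 0.17, adjusted p = 0.015) and Gstm7 by 0.40 (SE 0.11, adjusted p = 0.0242). At 12 months all 6 of these genes had medians above those of 6 months, except Sult1d1 at 317 CPM. Gsto1 (0.42 ± 0.07, adjusted p = 0.00101), Gstm6 (0.79 ± 0.17, adjusted p = 0.00589), and Gstm7 (0.60 ± 0.11, adjusted p = 0.00181) were called higher at 12 than at 6 months.

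Between 12 and 6 months, 16 members were higher and 3 lower, where 8.13% of all genes were called higher and 8.14% lower. Of the 20 Gst genes, 13 were higher and 0 lower. They included Gstt2 (0.85 ± 0.14, adjusted p = 8.86e-04) and Gstp3 (0.70 ± 0.16, adjusted p = 0.00699). Gstp3 had 9.53, 12.4, and 15.2 CPM at 6 months and 12.0, 21.1, and 26.6 CPM at 12 months. Sult1c2 rose from a median of 2.12 CPM to 5.17 CPM (1.53 ± 0.34, adjusted p = 0.00621). The lower genes were Sult1e1, Sult5a1, and Ugt2b38. In 7 members all 12-month libraries were above all 6-month libraries (2.07% of all genes), and in 0 members they were below (2.29%).

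Inflammation genes moved with the 6-month group. All 14 acute-phase genes tested were higher at 6 than at 2 months and all 14 were lower at 12 than at 6 months. Their summed level was 15042 to 21040 CPM at 2 months, 49475 to 142259 CPM at 6 months, and 11499 to 24604 CPM at 12 months. Neutrophil markers (2 of 5 genes tested, both higher) summed to 2.21 to 5.79 CPM at 2 months and 21.8 to 143 CPM at 6 months. Hepatocyte markers had sums of 89507 to 103189 CPM at 2 months (median 96771) and 54593 to 103908 CPM at 6 months (median 74174), ranges that overlap. Of these markers, Cps1 (log2 difference −0.82 ± 0.12) and Ass1 (−0.76 ± 0.14) were called lower. The cholangiocyte markers Spp1, Krt19, and Krt7 were called higher. The 6-month library of ZT5 was the highest in Saa1 (22651 CPM) and the lowest in the sum of the 46 genes (8022 CPM, against 8022 to 14220 CPM over the 6 libraries). Without it 9 members were called between 6 and 2 months in place of 14, with 8 lower and 1 higher, and the calls of Sult2a8, Gstm7, Gstt2, Ugt1a6b, and Ugt2b37 were lost. The part of the acute-phase state or of the cell type markers in these differences was not tested.

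The genotype cohort allowed the comparison of ages to be made again in other mice, with the limit that the time of collection changed with age, so that age and time of collection cannot be told apart. The libraries of both genotypes were fitted together, with terms for age and genotype and none for collection. The WT and KO libraries of a pair thus counted as separate replicates of an age. Between 12 and 2 months, 11 members were higher and 8 lower, of 45 tested, where 7.16% of all 14097 genes were called higher and 8.36% lower. Without TMM factors the split was 15 higher and 6 lower. Of the 18 members called in the time course, 17 had the same sign in the cohort (94.4%, against 72.8% of the genes called in the time course as a whole) and 12 were called in the same direction (66.7%, against 24.4%). Leaving out the pair of libraries of 12 months H, 2 months H, or 2 months L lowered the calls from 19 to 7, 8, and 12, and the 6 WT libraries alone gave 4.

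The Gst genes that rose in both experiments were Gsta1, Gsta2, Gstm1, Gstm3, Gstm4, Gstt1, and Gstt3. In the cohort, Gstm1 was 1500 and 1388 CPM in the WT libraries of 2 months (H and L), 1400 and 1302 CPM in those labelled KO, 2472 and 2459 CPM in WT at 12 months, and 2211 and 2386 CPM in those labelled KO. All 4 older libraries were above all 4 younger ones, as in 13 members and 8.65% of all genes (log2 difference 0.77 ± 0.12, adjusted p = 0.00131). Gsta2 was 31.1 and 30.3 CPM in WT and 26.3 and 21.1 CPM in KO at 2 months, against 69.5 and 74.1 CPM in WT and 38.1 and 52.2 CPM in KO at 12 months (1.07 ± 0.22, adjusted p = 0.00718). Gstt3 rose by 0.92 ± 0.17 (adjusted p = 0.00376) and Gstm4 by 0.89 ± 0.14 (adjusted p = 0.00131). The calls of Gstm1 and Gstm4 held with any 1 pair of libraries left out. Those of Gsta1, Gsta2, Gstm3, Gstt1, and Gstt3 were each lost without at least 1 of the pairs of 2 or 12 months, with adjusted p up to 0.2545 (Gstm3 without 2 months H). In the fit of the WT libraries alone, Gstt3 was the only Gst gene called, and Gstm1 and Gstm4 were not.

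Ugt2b1, Ugt2b37, Ugt2b38, and Sult5a1 were lower at 12 months in both experiments. Sult5a1 was 7.88 and 9.46 CPM in WT and 10.9 and 7.997 CPM in KO at 2 months, and 3.28 and 2.88 CPM in WT and 1.87 and 1.81 CPM in KO at 12 months (−1.90 ± 0.20, adjusted p = 1.62e-04). Ugt2b38 was 26.7 and 34.2 CPM in WT and 22.8 and 20.1 CPM in KO at 2 months, and 7.59 and 9.47 CPM in WT and 4.77 and 8.12 CPM in KO at 12 months (−1.80 ± 0.22, adjusted p = 3.99e-04). In these genes the ages did not overlap, which held for 9.76% of all genes in the direction of lower levels. Ugt2b1 fell by 0.55 (SE 0.11, adjusted p = 0.00568) and Ugt2b37 by 1.87 (SE 0.43, adjusted p = 0.0115) on the log2 scale. Ugt2b1 lost its call without the pair of 12 months H (adjusted p = 0.0621) and Ugt2b37 without that of 2 months L (0.0952) or 12 months L (0.0742). In the fit of the WT libraries alone, Sult5a1 and Ugt2b38 were called, and Ugt2b1 and Ugt2b37 were not.

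Other members differed between the experiments. Gstp1, a pi-class gene, was 1554 and 2001 CPM in WT and 1675 and 1437 CPM in KO at 2 months, 1051 and 837 CPM in WT and 1136 and 604 CPM in KO at 6 months, and 572 and 1038 CPM in WT and 576 and 677 CPM in KO at 12 months. It was lower in all libraries of both older ages (log2 difference −1.23 ± 0.21 at 12 months, adjusted p = 0.00275), whereas in the time course it had a difference of 0.30 that did not pass the test. Without the pair of 12 months H its call was lost (adjusted p = 0.0525). Ugt3a1 was higher in the cohort at 6 months (0.69 ± 0.09, adjusted p = 0.00312) and 12 months (0.85 ± 0.09, adjusted p = 2.13e-04) and had a difference of 0.01 ± 0.12 between 12 and 2 months in the time course. Sult1e1 ranged from 0 to 8.91 CPM within the WT libraries, with 1.02 ± 1.36 on the log2 scale for 12 against 2 months, and did not pass the test (adjusted p = 0.673). The difference between the experiments was not tested.

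Between 6 and 2 months of the cohort, 5 of 45 members were called, 2 higher and 3 lower, where 5.48% of all genes were called and 2.92% of all genes were called higher and 2.57% lower. Ugt1a9 was lower, as in the time course. Its levels were 26.8 and 19.3 CPM in WT and 32.1 and 41.4 CPM in KO at 2 months and 8.94 and 9.22 CPM in WT and 11.2 and 13.9 CPM in KO at 6 months (−1.46 ± 0.13, adjusted p = 5.25e-04). At 12 months it was back at 18.8 and 19.9 CPM in WT. It was the 1 member of the 14 called in the time course that was also called in the cohort at this age, and 8 of the 14 had the same sign (57.1%). Of all genes called in the time course, 53.1% had the same sign and 4.65% were called in both. The 6-month libraries did not overlap with those of 2 months in 2 members that were higher (5.69% of all genes) and 6 that were lower (6.14%). None of the 14 acute-phase genes was called in the cohort at 6 or 12 months by edgeR's test. They summed to 12101 to 18215 CPM at 2 months and 12385 to 18669 CPM at 6 months.

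**Figure D4:**
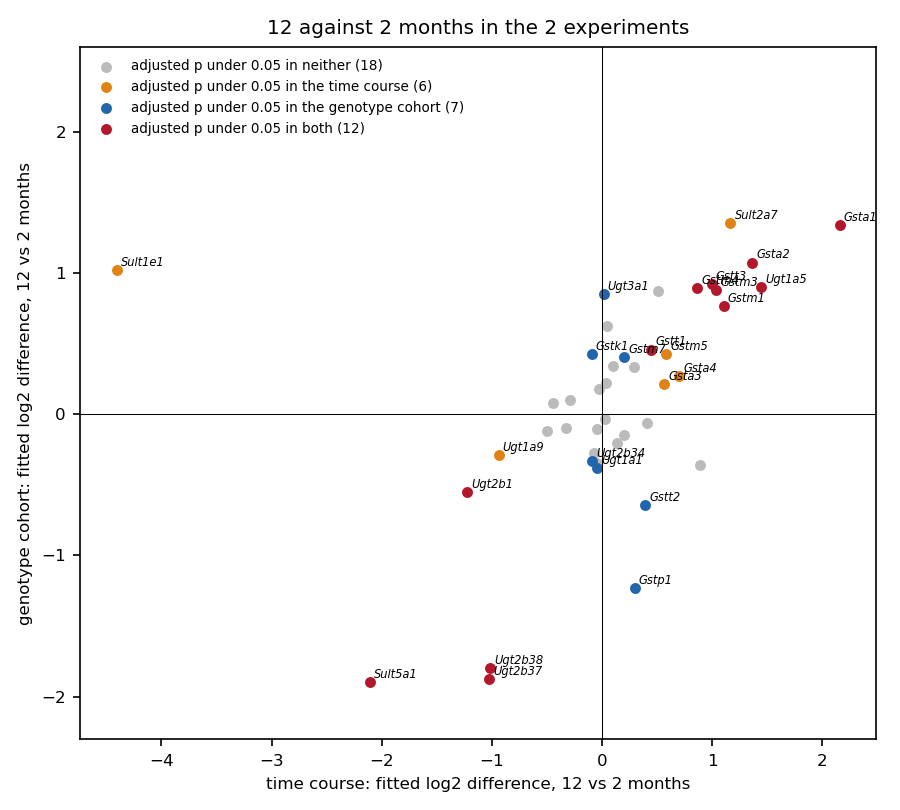
Fitted log2 difference between 12 and 2 months of each member tested in both experiments, with the time course on the x axis and the genotype cohort on the y axis. The 12 genes in red were called in both and lie in the quadrants of equal sign. Sult1e1 is far to the left at −4.41 and not below 0 in the cohort, and Gstp1 is at −1.23 in the cohort alone.

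Genes that supply the cosubstrates, or that share regulators with the 3 families, were read from lists. Of 17 NRF2 targets outside the families that were tested, 7 were higher and 0 lower between 12 and 2 months of the time course, and 6 were higher and 0 lower in the cohort. Htatip2 (log2 difference 0.94 ± 0.11, adjusted p = 4.42e-05), the epoxide hydrolase gene Ephx1 (0.77 ± 0.11, adjusted p = 4.1e-04), the NADPH-forming Me1 (1.34 ± 0.23, adjusted p = 0.00129), and G6pdx (1.04 ± 0.19, adjusted p = 0.0019) had the smallest p in the time course. Among 13 microsomal transferases and other conjugating enzymes, 3 were higher and 1 lower, led by Mgst3 (2.07 ± 0.20, adjusted p = 6.26e-06) and Nat8 (1.55 ± 0.18, adjusted p = 4.77e-05), which makes mercapturic acids from the products of Gst enzymes.

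Of 8 genes of the supply of UDP-glucuronate and PAPS, 1 was higher, namely Ugdh (0.71 ± 0.10, adjusted p = 3.65e-04), which makes UDP-glucuronic acid. It was also called in the cohort (0.32 ± 0.08, adjusted p = 0.0155). Of 11 genes of glutathione supply, Gpx4 was higher (0.43 ± 0.09, adjusted p = 0.00429) and Gpx1 lower. CAR and PXR targets gave 2 higher and 0 lower of 12 in the time course, with Cyp3a11 at 1.10 ± 0.13 (adjusted p = 6.22e-05). In the cohort 0 were higher and 3 lower, namely Por, Ces2a, and Alas1. Por and Alas1 were called rhythmic at every age of the time course, and the time of collection changed with age in the cohort. Of 14 male-biased liver genes, 8 were lower and 0 higher at 12 months in the time course, and 10 were lower and 1 higher in the cohort. Of 7 female-biased genes tested, 4 were lower and 1 higher, and in the cohort 4 of 9 were lower. Summed male-biased genes of the time course were at 15570 to 25505 CPM at 2 months (median 16534). At 12 months these genes were at 10085 to 19070 CPM (median 16244). Their part in the fall of the Ugt2b and Sult genes was not tested.

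Cell type markers moved with age as well. Of 6 B cell and plasma cell markers, 4 were higher at 12 months, with sums of 13.3 to 27.9 CPM at 2 months and 57.1 to 527 CPM at 12 months. Hepatocyte markers had 1 of 7 called lower in this comparison and sums of 89507 to 103189 CPM and 96010 to 131106 CPM. In the cohort, 5 of 7 hepatocyte markers were lower at 12 months, where 11 members were higher and 8 lower. What part these markers have in the members' differences was not tested.

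The second question was whether these genes followed the time of day. A 24-h curve was fitted to the 6 libraries of each age within edgeR's count model. At 2 months 3 members were rhythmic (5.13% of all genes), at 6 months 5 (4.85%), and at 12 months 2 (3.63%). Of the 43 members tested this was 6.98%, 11.6%, and 4.65%.

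Gstt2, a theta-class gene, was called at all 3 ages. It was 27.6 CPM at ZT1, 58.2 CPM at ZT9, and 39.9 CPM at ZT21 at 2 months, 19.6 CPM at ZT5 and 55.9 CPM at ZT17 at 6 months, and 35.5 CPM at ZT1 and 90.4 CPM at ZT13 at 12 months. The fitted peak was at ZT12.7, ZT16.0, and ZT13.4 and the amplitude, from the mean to the peak of the curve, was 0.50, 0.80, and 0.54 on the log2 scale (adjusted p = 0.0148, 4.38e-04, and 0.0103). Gstm4 was called at 2 months (peak ZT4.02, amplitude 0.53, adjusted p = 0.0215) and 12 months (peak ZT6.03, amplitude 0.59, adjusted p = 0.0104). It was highest at ZT5 at both ages, with 44.4 and 91.9 CPM, and lowest at ZT17, with 20.2 and 32.7 CPM. An exact permutation test of rank order gave p = 0.1333 for Gstt2 at 2 months. At 6 and 12 months it gave 0.0333, its smallest possible value. For Gstm4 this test gave 0.0333 at 2 months and 0.1333 at 12 months.

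At 6 months 3 of the 4 alpha-class genes were rhythmic, and Gsta1 did not pass the test (adjusted p = 0.449). Gsta3 was 917 CPM at ZT9 and 2488 CPM at ZT17 (peak ZT19.8, amplitude 0.76, adjusted p = 5.8e-04), Gsta2 was 4.74 CPM at ZT9 and 26.4 CPM at ZT17 (peak ZT19.8, amplitude 0.96, adjusted p = 0.0126), and Gsta4 was 24.8 CPM at ZT9 and 62.2 CPM at ZT17 (peak ZT19.0, amplitude 0.58, adjusted p = 0.005545). All 3 were lowest at ZT9 and highest at ZT17. The exact permutation test of rank order gave p = 0.1333 for each of them. Over the same 6 libraries, 7 of 14 acute-phase genes, both neutrophil markers tested, and 1 of 7 hepatocyte markers (Ttr) were also called rhythmic. Saa1 was not called rhythmic at this age. It was highest at ZT5 (22651 CPM) and lowest at ZT21 (5243 CPM). The sum of hepatocyte markers was lowest at ZT5 (54593 CPM) and highest at ZT17 (103908 CPM). The part of these in the rhythm of the alpha genes was not tested. At 2 months Gsta3 had its peak at ZT20.5 with amplitude 0.34, which did not pass the test (adjusted p = 0.0967), and at 12 months its amplitude was 0.08. Sult1c2 was 0.452 CPM at ZT5 and 3.75 CPM at ZT17 at 6 months (peak ZT15.5, amplitude 1.22, adjusted p = 0.0156), and Sult1e1 was called at 2 months (peak ZT19.0, amplitude 1.46, adjusted p = 0.0246). The permutation test gave p = 0.1333 for Sult1c2 at 6 months and 0.3167 for Sult1e1 at 2 months.

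The difference of rhythm between ages was tested as well. Between 6 and 2 months 0 members passed edgeR's test, where 0.112% of all genes did, with 14 members at an unadjusted p under 0.05 (10.8% of all genes). The smallest adjusted p were those of Sult1c2 (0.0738), Gsta2 (0.118), and Gstt2 (0.127), and DESeq2 called these 3 genes. Between 12 and 2 months 0 members and 0% of all genes passed, with 0 members at an unadjusted p under 0.05 (4.56% of all genes). In simulated counts of this design, genes were given a curve of log2 amplitude 1 (mean to peak) at 6 months and none at 2 months. All genes had the same dispersion. This difference of rhythm was recovered in 59% of them, so that a change of that size could be missed. Smaller changes of rhythm were not simulated. Leaving out ZT17 left 0 members called at 2 months and 2 at 6 months.

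Promoters of RefSeq were searched for motifs of regulators of these genes, on both strands. Of the 46 members, 41 had a promoter window (51 windows of 250 bases before to 50 after the start). The core of the antioxidant response element, TGACNNNGC, was found in 3 of 51 windows, those of Gsta3, Gstm5, and Gstm7, against 12.4% of all 32851 promoters. The D-box TTANGTAA, a motif of the clock-driven factors DBP, TEF, and HLF, was found in Sult1a1, Ugt1a9, and Ugt2b1, against 2.32% of all promoters. None of these genes was called rhythmic at any age. The E-box CACGTG was found in 0 windows (7.15% of all). Gsta3, an alpha gene that rose at 12 months and was called rhythmic at 6 months, is shown with the match to the core motif in capitals, followed by Ugt2b1 and Ugt1a9, which fell, with the D-box in capitals. They are the 250 bases before the start in GRCm38.p6 from RefSeq, 5′ to 3′, at chr1:21240335-21240584 (plus strand), chr5:86926504-86926753 (minus strand), and chr1:88070529-88070778 (plus strand).
Gsta3: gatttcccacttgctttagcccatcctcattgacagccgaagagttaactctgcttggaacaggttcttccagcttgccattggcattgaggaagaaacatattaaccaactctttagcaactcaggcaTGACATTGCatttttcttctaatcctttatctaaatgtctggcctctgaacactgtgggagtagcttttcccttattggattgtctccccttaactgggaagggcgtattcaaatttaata
Ugt2b1: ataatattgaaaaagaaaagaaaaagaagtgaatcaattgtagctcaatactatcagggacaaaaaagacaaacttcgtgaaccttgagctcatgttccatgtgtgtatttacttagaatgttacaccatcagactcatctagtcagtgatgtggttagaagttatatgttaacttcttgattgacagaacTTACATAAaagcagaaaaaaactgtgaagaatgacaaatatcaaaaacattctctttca
Ugt1a9: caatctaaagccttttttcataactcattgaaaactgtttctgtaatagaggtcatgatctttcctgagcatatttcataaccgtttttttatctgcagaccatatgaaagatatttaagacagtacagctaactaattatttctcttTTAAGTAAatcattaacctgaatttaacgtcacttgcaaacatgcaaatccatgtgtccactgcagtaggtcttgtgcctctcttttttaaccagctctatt

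The third question was which members differed between the livers labelled KO and WT. Egr1 was first read in each library. With the KO label it was lower at 6 months H (5.49 against 72.2 CPM), 6 months L (4.97 against 24.99 CPM), and 12 months L (1.54 against 55.3 CPM). At 2 months H it was 1.96 against 2.54 CPM (exact Poisson 95% intervals of 1.41 to 2.66 and 1.89 to 3.35 CPM, which cover counting error only). At 2 months L it was higher in the library labelled KO (7.36 against 1.45 CPM), and at 12 months H it was 6.14 against 5.87 CPM. All directions below rest on the labels.

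Over the 6 pairs, 2 of 44 members were called, where 1.58% of all genes were called and 0.792% of all 13639 genes were called lower and 0.785% higher. The pi-class gene Gstp3 was lower in the libraries labelled KO and Ugt1a9 was higher. Without TMM factors, which moved the median of all genes from −0.01 to 0.11 on the log2 scale, 3 members were higher and 1 lower. The members' median log2 difference was −0.06.

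Gstp3 was 22.7, 28.2, 23.9, 23.4, 32.4, and 30.6 CPM in the WT libraries of 2 months H and L, 6 months H and L, and 12 months H and L, and 14.6, 11.5, 12.0, 14.8, 17.7, and 15.8 CPM in the matching libraries labelled KO. It was lower in 6 of 6 pairs and the genotypes did not overlap. The log2 difference was −0.90 ± 0.09 (edgeR, adjusted p = 0.00617). Without the pairs of 2 months L and 12 months H, in which Egr1 was not lower in KO, it was −0.81 and missed the threshold (adjusted p = 0.0501). Its neighbours on chromosome 19 did not pass the test. Gstp1 had −0.22 ± 0.11 (adjusted p = 0.374) and was lower in 3 of 6 pairs, and Gstp2 had 0.31 ± 0.35 (adjusted p = 0.717) with 0.881 to 7.92 CPM. The lower pairs of Gstp1 were those of collection L, with log2 ratios of −0.48, −0.47, and −0.62 at 2, 6, and 12 months. In the H pairs the ratios were 0.11, 0.11, and 0.01. Its difference between collections did not pass edgeR's test.

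Ugt1a9 was 26.8, 19.3, 8.94, 9.22, 18.8, and 19.9 CPM in WT and 32.1, 41.4, 11.2, 13.9, 32.8, and 26.4 CPM in KO in the same order, higher in 6 of 6 pairs although the ranges of the genotypes overlap. The log2 difference was 0.58 ± 0.11 (adjusted p = 0.0376). This call was lost in 5 of the 6 fits that each left out 1 pair, with adjusted p from 0.0624 to 0.111, and without both pairs named above the difference was 0.39 (adjusted p = 0.212). In the collections taken separately, 0 members were called among the H pairs.

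Sult2a7 and Ugt2b38 came next. Sult2a7 was higher in KO in 6 of 6 pairs, with 2.19, 2.28, 4.12, 2.74, 13.3, and 3.84 CPM in WT and 2.54, 15.1, 7.53, 7.51, 17.3, and 15.4 CPM in KO (log2 difference 1.25 ± 0.29, adjusted p = 0.0692). Ugt2b38 was lower in 6 of 6 pairs (−0.59 ± 0.14, adjusted p = 0.0676). DESeq2 called both, and Gstt3. The number of members that were lower in all 6 pairs was 3 (4.74% of all genes) and higher in all 6 pairs 2 (5.07%). Gsta2 (−0.55 ± 0.19, adjusted p = 0.193), Gstm1 (−0.17 ± 0.10, adjusted p = 0.482), Sult1a1, and Ugt1a1 did not pass the test.

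The genotype effect did not differ between ages or collections in any member by edgeR's test, where 0.0147% and 0.00733% of all genes passed. At an unadjusted p under 0.05, 3 members (3.11% of all genes) and 7 members (5.23% of all genes) were found. Of the lists, 2 of 12 CAR and PXR targets were lower in KO (Ces2a and Slco1a4) and 0 of 17 NRF2 targets were called. Also called lower were the male-biased Serpina1e and Slco1a1, the periportal Cyp2f2 and Hsd17b13, the acute-phase Fga, Fgb, and Fgg, and the cholangiocyte marker Sox9. Called higher were the pericentral Glul and Oat, the acute-phase Orm3, the conjugating enzyme gene Nnmt, and the stellate cell marker Col1a1. Hepatocyte markers summed to 72802 to 93711 CPM in WT and 42412 to 61558 CPM in KO, without overlap, with 2 of 7 called lower (Alb and Apoa1), and the B cell marker Ighm was called higher. Their part in the genotype differences was not tested.

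**Figure D5:**
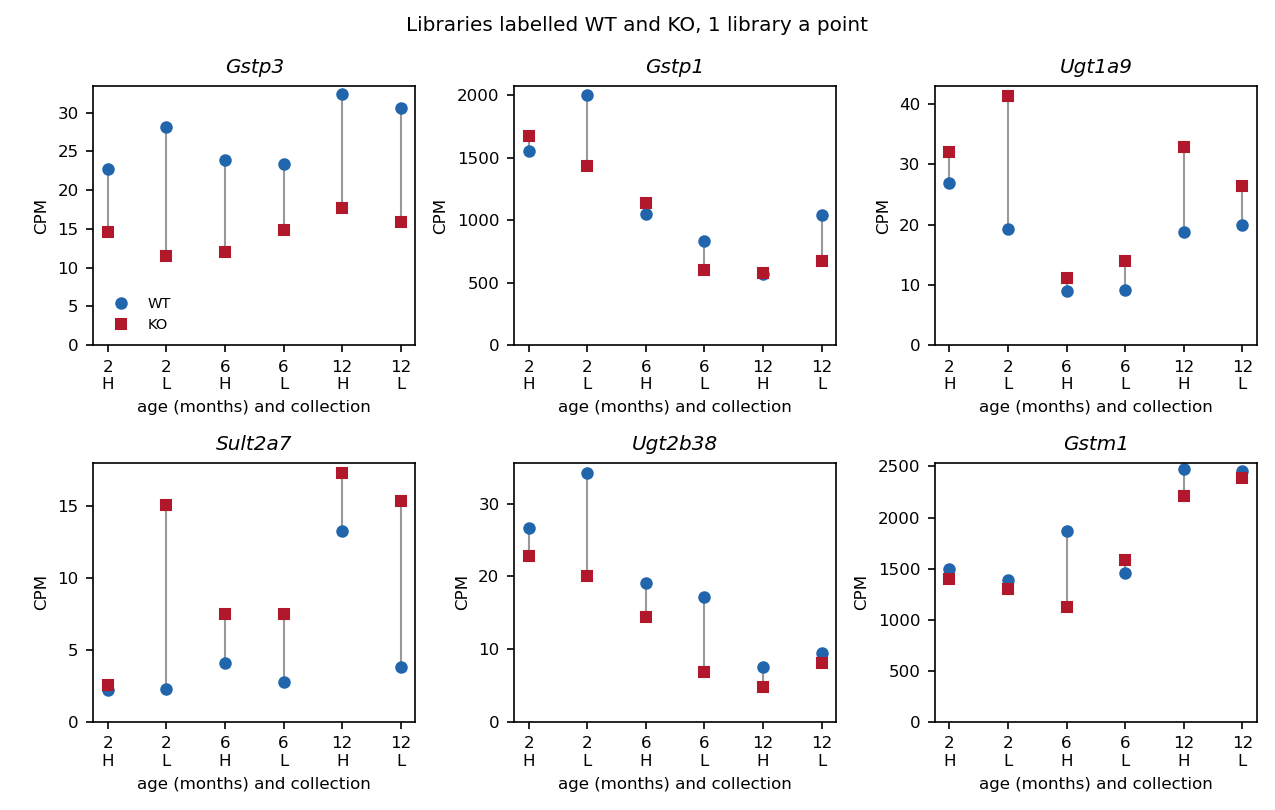
Levels in CPM of 6 genes in the 12 libraries of the genotype cohort, with each pair of WT (blue circles) and KO (red squares) joined by a line and placed by age and collection. Gstp3 is lower in KO in all 6 pairs, with WT from 22.7 to 32.4 CPM and KO from 11.5 to 17.7 CPM, whereas Gstp1 is lower in KO in the L pairs and not in the H pairs.

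The binding motif of EGR factors, GCGNGGGCG, was found in 1 of 51 member windows (5.55% of all promoters), that of Gsto1. Gsto1 was lower in 5 of 6 pairs, with a log2 difference of −0.25 ± 0.07 that did not pass the test (adjusted p = 0.139). The upstream sequences of Gstp3, the member with the smallest p, and of Gsto1, with the motif in capitals, are shown for this comparison, as 250 bases of GRCm38.p6 from RefSeq, 5′ to 3′, at chr19:4059448-4059697 (minus strand) and chr19:47854723-47854972 (plus strand).
Gstp3: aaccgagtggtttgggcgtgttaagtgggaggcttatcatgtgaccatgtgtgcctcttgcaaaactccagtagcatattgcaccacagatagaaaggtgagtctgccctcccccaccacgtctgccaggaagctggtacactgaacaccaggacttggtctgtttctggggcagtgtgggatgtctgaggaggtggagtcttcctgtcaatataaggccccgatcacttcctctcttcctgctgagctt
Gsto1: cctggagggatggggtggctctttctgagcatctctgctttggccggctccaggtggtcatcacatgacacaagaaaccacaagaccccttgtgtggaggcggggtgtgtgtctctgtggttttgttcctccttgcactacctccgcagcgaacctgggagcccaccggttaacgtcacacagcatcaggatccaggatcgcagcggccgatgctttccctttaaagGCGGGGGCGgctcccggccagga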

How the data were processed

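Liver RNA was sequenced in 18 libraries of the time course and 12 of the genotype cohort. The authors deposited 2 tables of raw counts per gene. The submitters' processing notes name fastp, HISAT2, featureCounts, and mm10, while versions and the treatment of reads that map to several genes are not given in the sources used here. All columns were used (0 left out). Counts were analysed with edgeR (4.0.16, limma 3.58.1, R 4.3.3), with filterByExpr, TMM factors, the quasi-likelihood F-test, and Benjamini-Hochberg adjustment over all genes (threshold 0.05). In the time course, age was fitted with ZT as a block and rhythm as a 24-h cosine curve within each age. The 6 times of an age stand in for replicates there. In the cohort, age was fitted with a term for genotype, and genotype with the 6 pairs of age and collection as a block. CPM were counts relative to the library total times its TMM factor, and FPKM used the summed exon length of GENCODE M21 (GRCm38). SE was the fold change divided by the square root of F. DESeq2 (1.42.0), other scalings, no filter, and single libraries left out were alternatives, and 7 were added after the data were seen. Each test was run on simulated counts. In these, 99% of 2-fold changes in level between 12 and 2 months were recovered among 13267 genes, 98% between genotypes among 13583 genes, and 89% between the ages of the cohort among 13623 genes.

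The members and lists were chosen with earlier results of these data known. Genes named were up to 12 members with the smallest p for each comparison of level, up to 8 for each rhythm, the most abundant member of each class, and 8 genes fixed by name, with at most 4 of a list. Figures were drawn with matplotlib (3.10.9).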

Additional observations from a re-analysis of the deposited data

Results flagged for a closer look

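In 16 of 185 groups of a named gene, 1 library lay far from the others by Dixon's test, and chance gives about 5% of groups. Values are CPM with the nearest other library of the group. At ZT9 of the 2-month time course, Gsta4 (34.5, nearest 43.5) and Gstp3 (10.49, nearest 16.3) were low, and Sult2a8 (3045, nearest 2195) and Ugt1a6b (23.8, nearest 19.3) were high. Elsewhere at 2 months, Gstz1 was low at ZT13 (807, nearest 892) and Ugt1a9 was high at ZT1 (25.6, nearest 20.6). At 6 months, Gstt3 was low at ZT9 (15.3, nearest 22.6) and Ugt2b34 was low at ZT5 (238, nearest 459), in the library with the highest acute-phase genes. At 12 months, Gstz1 was high at ZT9 (1168, nearest 900.3), and at ZT21 Sult1a1 was high (488, nearest 329) and Ugt1a6b was low (17.6, nearest 21.8). In the cohort, single WT libraries were high in Sult1d1 at 2 months L (321, nearest 215), Sult2a8 at 6 months H (1228, nearest 972), and Sult2a7 at 12 months H (13.3, nearest 4.12). Of the libraries labelled KO, Gstp2 was high at 12 months L (7.92, nearest 3.74) and Ugt2a3 was low at 12 months H (224, nearest 279). With 1 library for each age and time, a time of day and a single library cannot be told apart.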

How the results depend on the processing

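No log2 difference of a member called in a comparison of age or genotype changed sign. Between 6 and 2 months, the 14 members called became 9 without ZT as a block and 9 without the 6-month library of ZT5, and ranged from 9 to 15 with 1 time point left out. The corresponding ranges were 15 to 18 between 12 and 2 months and 17 to 21 between 12 and 6 months. Rhythmic members at 2, 6, and 12 months were 9, 17, and 7 at an unadjusted p under 0.05 (20.3%, 19.4%, and 17.9% of all genes), and ranged from 0 to 4, 2 to 6, and 1 to 3 with 1 time left out. At 6 months DESeq2 gave 10, and an exact permutation test of rank order at its smallest p (0.0333) gave 4, 3, and 1 at the 3 ages (8.39%, 7.92%, and 6.30% of all genes). Differences of rhythm between 6 and 2 months were 2 without the filter, 3 by DESeq2, and 0 to 1 with 1 time left out, and between 12 and 2 months 0 throughout with 1 time left out. Between genotypes, the 2 members became 4 without TMM factors, 6 without the filter, 5 by DESeq2, 0 in the H pairs alone, 0 without the pairs of 2 months L and 12 months H, and 1 to 2 with 1 pair left out. Without the replicate block that pairs libraries by age and collection, 2 members were called. The unfiltered fit gave 1 member with a genotype effect that differed by age and 2 by collection (0 with a pair left out). Between 6 and 2 months of the cohort, the 5 members became 13 without the filter, 8 by DESeq2, 0 in WT alone, and 1 to 4 with a pair left out. Between 12 and 2 months, the 19 became 4 in WT alone and 7 to 21 with a pair left out. The cause of these changes was not tested. Of the alternative values of single called members, 14 of 216 between 12 and 2 months of the time course and 56 of 209 in the cohort no longer passed. Depth limits the genes under a few CPM, such as Sult1e1 and Gstp2.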

Other observations

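Ugt1a7c, named after its values were seen, had separate levels among libraries. In the time course it was 4.50 CPM at 6 months ZT1 and 5.10, 4.73, and 4.43 CPM at 12 months ZT1, ZT13, and ZT17, and at most 0.71 CPM in the other 14 libraries. In the cohort it was 5.39 and 8.43 CPM in the WT libraries of 2 months, 3.85 CPM in the library labelled KO of 6 months H, and 0.379 to 1.13 CPM in the others. Of its windows of 100 bases, 68.8% lie in other Ugt1a genes.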
